A study of Oryza sativa with 216 samples.

Results

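The Aux/IAA and ARF genes, the transcriptional repressors and the DNA-binding transcription factors at the end of the auxin response pathway, were examined in rice flag leaves collected at heading. The members were all genes whose symbol was IAA or ARF followed by a number, read from a probe set with a single gene symbol. After the symbols of the probe annotation had been updated through the gene table, 43 such genes (26 Aux/IAA and 17 ARF) were found on the array among 17905 genes with a probe set of their own, out of 51 that the gene table names. They were represented by 54 probe sets out of 57258. Where a gene had more than 1, the probe set with the highest mean over all arrays was taken. The symbols ARF5, ARF6, ARF8, ARF19, ARF21, ARF25, IAA11 and IAA29 had no such probe set and are not analysed here. ARF also abbreviates another protein family, and several of these genes carry more than 1 number in the literature. The names used here are those of the gene table.

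The samples were untreated indica rice: 210 recombinant inbred lines (RILs), each a selfed descendant of a cross of Zhenshan 97 with Minghui 63, with 1 array a line, and the parents Minghui 63 and Zhenshan 97, with 3 arrays each. All were grown in the field, in sowings that served as the biological replicates, and a flag leaf was taken from each of 3 plants per replicate. For each RIL, the RNA of 2 plantings was pooled on its array, and only the parents have replicates. Expression is given as log2 RMA values, in which a difference of 1 is a doubling, and levels were compared between samples for 1 probe set at a time, never between genes.

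In plants, auxin is perceived by F-box proteins of the TIR1/AFB family that bind Aux/IAA proteins and have them degraded. Aux/IAA proteins otherwise hold ARF proteins on the promoters of auxin response genes inactive, together with TOPLESS-type corepressors. Some ARF proteins activate transcription and others repress it, and many Aux/IAA genes are themselves induced by auxin, so that their transcripts form a feedback loop. In leaves, the pathway is known for its part in the growth of the blade, the veins and the joint between blade and sheath.

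The labelled tissue was checked with markers. CAB2R (a chlorophyll a/b-binding protein) and RBCS (the small subunit of Rubisco) were near the top of the scale in every parental array, with means of 14.10 and 14.41 in Minghui 63, against 14.06 and 14.38 in Zhenshan 97, whereas the probe set of RBCS1 was low in both (3.02 in Minghui 63 and 2.92 in Zhenshan 97). Of the 3 root markers, LSI1 (a silicon transporter) averaged 8.77 in Minghui 63 and 10.42 in Zhenshan 97 (limma adjusted p = 0.00556), AMT1-2 averaged 6.87 in Minghui 63 and 6.30 in Zhenshan 97, and LSI2 averaged 3.69 in Minghui 63 and 3.49 in Zhenshan 97. Of the 8 floral organ markers, MADS1 averaged 7.07 in Minghui 63 and 10.04 in Zhenshan 97 (adjusted p = 0.00546), MADS3 averaged 6.87 in Minghui 63 and 5.74 in Zhenshan 97 (adjusted p = 0.0185), MADS16 averaged 9.08 in Minghui 63 and 7.99 in Zhenshan 97 (adjusted p = 0.0233), and the other 5 had means between 2.90 and 4.01. The 3'-minus-5' difference of the GAPDH control, a measure of RNA integrity, lay between 1.32 and 1.67 in the Minghui 63 arrays and between 0.759 and 1.18 in the Zhenshan 97 arrays. That of the cyclophilin control also lay apart, between -0.309 and -0.192 in Minghui 63 and between -0.105 and 0.44 in Zhenshan 97, while that of actin overlapped. The actin difference was larger in most RIL arrays, at 1.26 to 2.75 with a median of 2.01. It lay between 0.946 and 1.72 in Minghui 63 and between 1.23 and 1.61 in Zhenshan 97. Neither the marker levels nor RNA integrity were tested for their part in the differences below, between the parents or between RILs and parents.

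The first comparison asked whether the parents differed in the expression of these genes. Of the 43 members, 10 were higher in Minghui 63 and 0 were lower (limma, Benjamini-Hochberg adjusted p under 0.05 over all probe sets). This is 23.3% of the members, against 5.31% of all probe sets called in either direction, 2.86% higher and 2.46% lower. Only 11 of the members lay below the level of the median probe set. In a fit of only the probe sets at or above the median level, 7 of 32 members (21.9%) passed, against 9% of all those probe sets. At an unadjusted p under 0.05, 21 members (48.8%) passed, against 17.4% of all probe sets, and IAA25 was the only one of these that was lower in Minghui 63. The called members were 7 of the 26 Aux/IAA genes (IAA8, IAA9, IAA10, IAA12, IAA15, IAA21 and IAA30) and 3 of the 17 ARF genes (ARF2, ARF12 and ARF15). The median difference, Minghui 63 minus Zhenshan 97, was 0.52 over the members and 0.02 over all probe sets, and it was positive in 35 of 43 members (81.4%), against 53.6% of all probe sets. Without Zhenshan 97 replicate 3 the median was 0.33 over the members and 0.02 over all probe sets. By family it was 0.53 in Aux/IAA and 0.52 in ARF, 0.31 and 0.52 with the second probe sets, and 0.30 and 0.48 without Zhenshan 97 replicate 3, and the difference between the families was not tested.

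**Figure D1:**
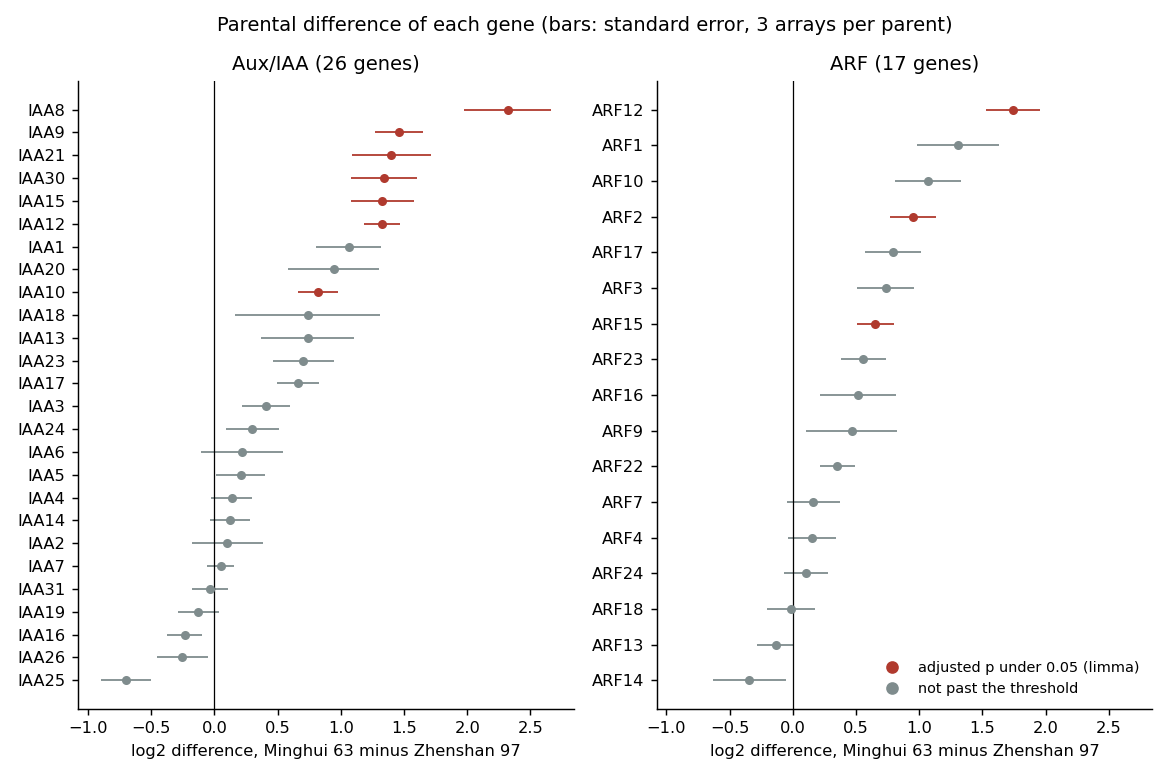
Difference in log2 expression between the parents (horizontal axis, Minghui 63 minus Zhenshan 97, bars show the standard error, 3 arrays per parent) for the 26 Aux/IAA and 17 ARF genes. The 10 genes past the threshold, in red, all lie right of 0, with IAA8 (2.32) and ARF12 (1.74) at the top of their families and IAA25 (-0.70) at the bottom.

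ARF12, related to the activators ARF6 and ARF8 of Arabidopsis and a known microRNA target, had the largest difference among the ARF genes. Its values were 8.74, 9.06 and 8.62 in the Minghui 63 arrays, against 7.25, 7.22 and 6.71 in the Zhenshan 97 arrays. All Minghui 63 arrays were above all Zhenshan 97 arrays, with a gap larger than the spread within either parent, and the difference was 1.74 (SE 0.21, limma adjusted p = 0.00212), a 3.35-fold higher level. ARF17, of the same type and targeted by the same microRNA, had 8.90, 9.26 and 9.00 in Minghui 63, against 8.21, 8.66 and 7.91 in Zhenshan 97. Its arrays did not overlap either, but the difference of 0.79 did not pass (SE 0.22, limma adjusted p = 0.0895).

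ARF2 and ARF15 are ETTIN-type ARF genes, a group of repressors targeted by small RNAs from a TAS3 precursor that in rice also holds ARF3 and ARF14. ARF2 had 8.18, 8.05 and 8.10 in Minghui 63, against 6.87, 7.38 and 7.23 in Zhenshan 97 (difference 0.95, SE 0.18, limma adjusted p = 0.0209). The second probe set of ARF2 gave a difference of 1.0 (limma adjusted p = 0.0159). ARF15 had 9.80, 10.05 and 9.87 in Minghui 63, against 9.20, 9.26 and 9.29 in Zhenshan 97 (difference 0.65, SE 0.15, limma adjusted p = 0.0445). In both genes the arrays of the parents were apart, and those of Minghui 63 were the higher ones. ARF3 had 9.28, 9.03 and 9.46 in Minghui 63, against 8.47, 8.93 and 8.17 in Zhenshan 97, with a difference of 0.73 that did not pass (SE 0.23, limma adjusted p = 0.125). ARF14 had overlapping arrays and a difference of -0.34 (SE 0.29, limma adjusted p = 0.65).

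ARF10 and ARF22 belong to the group of microRNA-targeted repressors. ARF10 had 7.0, 6.94 and 7.46 in Minghui 63, against 5.92, 6.58 and 5.69 in Zhenshan 97, with a difference of 1.07 that missed the threshold (SE 0.26, limma adjusted p = 0.0551). ARF22 had 10.08, 10.19 and 10.12 in Minghui 63, against 9.78, 9.82 and 9.73 in Zhenshan 97 (difference 0.35, SE 0.14, limma adjusted p = 0.227). ARF1 differed by 1.31 (SE 0.32, limma adjusted p = 0.0580), with 7.13, 7.69 and 7.78 in Minghui 63, against 6.67, 6.50 and 5.51 in Zhenshan 97. The arrays did not overlap in any of these 3 genes. The other ARF genes named for their level or their spread over the RILs had overlapping arrays, except ARF23, a partner of ARF24 in the control of cell growth in rice, with a difference of 0.56 (limma adjusted p = 0.133). In ARF4, ARF9, ARF16 and ARF24 the differences were 0.15, 0.47, 0.52 and 0.11.

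Among the repressors, IAA8 had the largest difference of all members. Its values were 4.79, 6.28 and 5.84 in Minghui 63, against 3.41, 3.52 and 3.02 in Zhenshan 97 (difference 2.32, SE 0.34, limma adjusted p = 0.00608). The Minghui 63 arrays were spread over more than 1 log2 unit but all lay above those of Zhenshan 97, whose values were close to the bottom of the scale. Its second probe set, at 2.97, 3.05 and 2.95 in Minghui 63, against 2.57, 2.76 and 2.74 in Zhenshan 97, gave a difference of only 0.30, which did not pass (limma adjusted p = 0.152). The result on IAA8 therefore rests on 1 of its 2 probe sets.

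IAA9 had 6.09, 5.65 and 5.89 in Minghui 63, against 4.18, 4.74 and 4.31 in Zhenshan 97 (difference 1.46, SE 0.19, limma adjusted p = 0.00320). IAA12 had 5.68, 5.95 and 5.88 in Minghui 63, against 4.38, 4.63 and 4.52 in Zhenshan 97 (difference 1.32, SE 0.14, limma adjusted p = 0.00110). IAA30 had 6.67, 7.02 and 5.93 in Minghui 63, against 5.17, 5.26 and 5.15 in Zhenshan 97 (difference 1.34, SE 0.26, limma adjusted p = 0.0222). IAA12 had the smallest adjusted p of the members, and its arrays lay close together within each parent, whereas the IAA30 arrays of Minghui 63 were widely spread. IAA30 stands directly beside IAA31 in the gene order of assembly ASM3414082v1, and IAA31, with overlapping arrays, differed by only -0.03 (limma adjusted p = 0.954). A second, dimmer probe set of IAA31 had 3.10, 3.24 and 2.88 in Minghui 63, against 2.54, 2.69 and 2.65 in Zhenshan 97. Its arrays did not overlap, and its difference of 0.45 did not pass (limma adjusted p = 0.0786).

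IAA10, IAA15 and IAA21 were at high array levels in both parents. IAA15 had 11.25, 11.84 and 11.36 in Minghui 63, against 10.28, 10.52 and 9.67 in Zhenshan 97 (difference 1.33, SE 0.25, limma adjusted p = 0.0194). IAA21 had 9.55, 10.36 and 9.39 in Minghui 63, against 8.42, 8.80 and 7.89 in Zhenshan 97 (difference 1.40, SE 0.31, limma adjusted p = 0.0407). The 3 Minghui 63 arrays of IAA10 agreed to within 0.02, at 11.84, 11.82 and 11.82, against 10.90, 11.33 and 10.80 in Zhenshan 97 (difference 0.82, SE 0.16, limma adjusted p = 0.0237). In each of these genes the lowest Minghui 63 array was above the highest Zhenshan 97 array.

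IAA1 and IAA17 had differences of 1.06 and 0.66 that missed the threshold (limma adjusted p = 0.0552 and 0.0633), although their arrays did not overlap, and a second probe set of IAA1 gave 0.28 (adjusted p = 0.529). IAA3 and IAA5 differed by 0.41 and 0.21, within the spread of the arrays. IAA6 and IAA20 were unusual in 1 Minghui 63 array, replicate 2, which had 7.41 and 5.72, against 6.17 and 6.27 for IAA6 and 4.57 and 4.09 for IAA20 in the other two. IAA18 showed the same, with 6.67 in Minghui 63 replicate 2 against 4.45 and 4.25 in the other Minghui 63 arrays.

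IAA25 was the only member whose arrays lay apart with Minghui 63 lower. Its values were 10.24, 10.75 and 10.64 in Minghui 63, against 11.40, 10.92 and 11.40 in Zhenshan 97. The difference of -0.70 did not pass (SE 0.20, limma adjusted p = 0.0952). In all, the arrays did not overlap in 20 of 43 members, against 22.8% of all probe sets. In 19 of them (44.2%) Minghui 63 was the higher, against 12.9% of all probe sets, and in 1 (2.33%) it was the lower, against 9.87%. With 3 arrays a parent, an exact permutation test of a single gene cannot give a two-sided p below 0.1, which each of these 20 genes had.

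**Figure D2:**
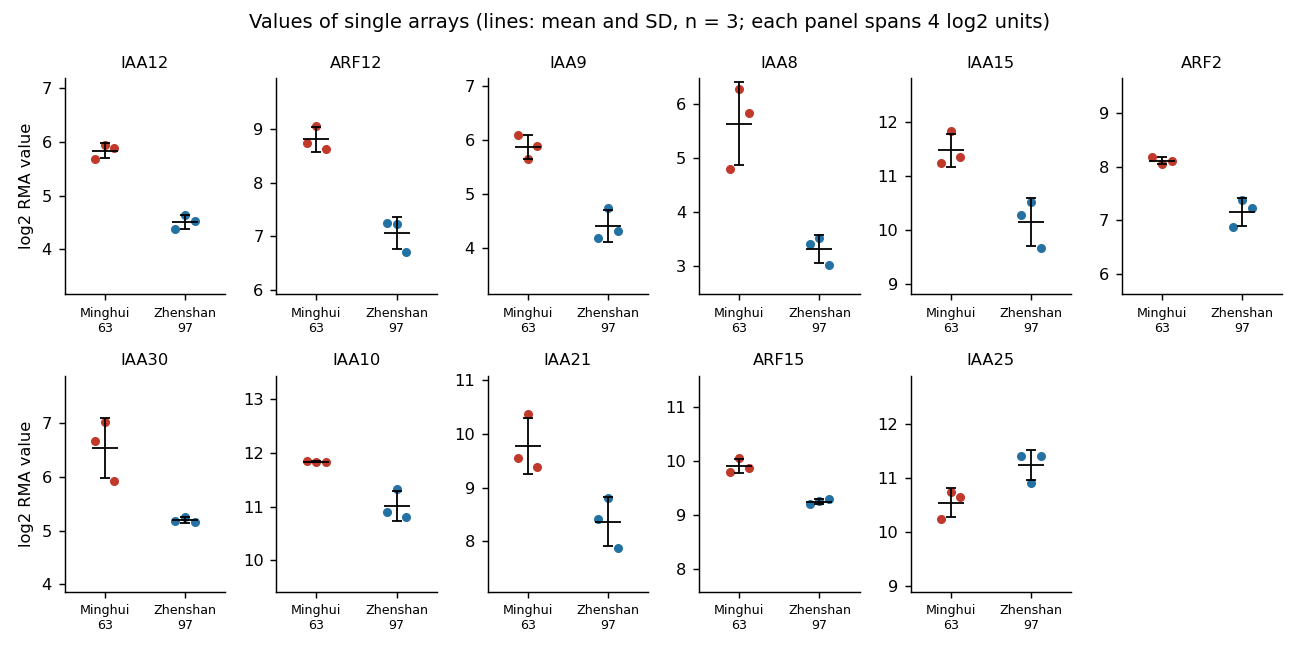
Log2 values of the single parental arrays (points; lines show the mean and SD, n = 3) for the 10 members past the threshold, ordered by adjusted p, and for IAA25. The arrays of Minghui 63 lie above those of Zhenshan 97 in the 10 called genes and below them in IAA25, and the spread is largest in the Minghui 63 arrays of IAA8, at 4.79 to 6.28.

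The single arrays did not contribute alike. Within Zhenshan 97, replicate 2 was the highest of the 3 arrays in 32 of 43 members (74.4%, against 42.4% of all probe sets) and replicate 3 was the lowest in 28 (65.1%, against 29.3%). ARF12, IAA8, IAA9 and IAA12 passed whichever parental array was left out. The other calls did not: without Minghui 63 replicate 1 the limma adjusted p was 0.0546 for IAA15, 0.0986 for IAA30, 0.105 for IAA21, 0.108 for ARF2, 0.111 for IAA10 and 0.138 for ARF15. Without Zhenshan 97 replicate 1 the same 6 genes were lost, at 0.0623 for IAA15, 0.0796 for IAA30, 0.116 for IAA21, 0.0553 for ARF2, 0.0935 for IAA10 and 0.121 for ARF15. Without Zhenshan 97 replicate 3, 5 of them were lost (all but IAA15, at 0.0426). Without Minghui 63 replicate 2, IAA21 (0.0705) and ARF15 (0.0949) were lost, without Minghui 63 replicate 3, ARF2 (0.0638), IAA10 (0.0637) and ARF15 (0.111), and without Zhenshan 97 replicate 2 only ARF15 (0.0795). In the last case 14 members passed, of which 13 were higher in Minghui 63 and IAA25 was lower (limma adjusted p = 0.0463).

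The genes around this core did not follow 1 direction. Of 21 other auxin pathway genes, 3 passed (14.3%, against 5.31% of all probe sets), and 6 (28.6%, against 17.4%) were at an unadjusted p under 0.05. In the fit of only the probe sets at or above the median level, 4 of 10 passed (40%, against 9%), 2 higher and 2 lower in Minghui 63. Of the 3 in the main fit, TPR2, a TOPLESS-related corepressor, was higher in Minghui 63, and RUB1 and FIB were lower. RUB1, a ubiquitin-like protein that is attached to the cullin of the receptor complex, had 11.88, 11.76 and 12.08 in Minghui 63, against 13.20, 12.89 and 13.16 in Zhenshan 97 (difference -1.18, SE 0.14, limma adjusted p = 0.00160). FIB, an aminotransferase of auxin synthesis, had 6.39, 6.0 and 6.63 in Minghui 63, against 7.33, 7.26 and 7.67 in Zhenshan 97 (difference -1.08, SE 0.21, limma adjusted p = 0.0237). TPR2 had 11.31, 11.29 and 11.14 in Minghui 63, against 10.22, 10.64 and 9.89 in Zhenshan 97 (difference 0.99, SE 0.20, limma adjusted p = 0.0254). RUB1 passed whichever array was left out, but TPR2 passed only without Zhenshan 97 replicate 2, and FIB only without Zhenshan 97 replicate 2 or Minghui 63 replicate 3.

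None of the 9 GH3 genes, whose enzymes conjugate auxin or jasmonate to amino acids, and none of the 5 PIN carriers passed (limma). At an unadjusted p under 0.05 the GH3 genes had 0 and the carriers 2. These were PIN10A, with a difference of 0.61 (limma adjusted p = 0.0519), and PIN5A, with a difference of -0.94 (limma adjusted p = 0.0578). PIN10A did pass without a variance trend and after quantile normalization. It also passed among only the probe sets at or above the median level, and with all arrays in 1 fit. The early response gene SAUR39 had 7.04, 8.00 and 6.82 in Minghui 63, against 9.23, 9.27 and 7.67 in Zhenshan 97 (difference -1.43, SE 0.47, limma adjusted p = 0.145). Zhenshan 97 replicate 3 lay far below the other Zhenshan 97 arrays, and without it SAUR39 passed, with a difference of -1.96. The median difference over the 21 genes was -0.05. No receptor gene was matched by symbol.

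The RILs show how these genes vary among lines that carry different mixtures of the parental genomes. The SD over the 210 lines had a median of 0.28 over the members, against 0.19 over all probe sets, and lay between 0.13 (IAA31) and 0.51 (IAA8). It was 0.29 in Aux/IAA and 0.23 in ARF genes. The spread of single arrays within the parents was of similar size. The median ratio of the SD over the RILs to that within the parents was 0.845 in the members, against 1.03 in all probe sets. It was under 1 in 27 of 43 members (62.8%), against 47.6% of all probe sets. Each RIL array held pooled RNA of separate plantings, whereas the arrays of a parent were given as separate biological replicates. The ratio therefore cannot show how much of the variation over the RILs was genetic. ARF22 (3.92), IAA12 (3.22) and ARF15 (2.97) had the highest ratios of SDs. Within the parents their SDs were 0.049, 0.134 and 0.097, and over the RILs 0.19, 0.43 and 0.29. The SD of ARF22 over the RILs was above that of only 56% of all probe sets.

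The Aux/IAA genes with the highest SD were IAA8, IAA20, IAA9, IAA12 and IAA6. IAA8 had a lowest value of 3.57, a median of 5.04 and a highest value of 6.35 over the RILs (SD 0.51). Most lines lay between the parental means of 5.64 in Minghui 63 and 3.32 in Zhenshan 97, and nearer that of Minghui 63 (first quartile 4.75). All were above the 3 Zhenshan 97 arrays, and only 2 lines lay above the highest parental array. IAA20 was low in most lines and high in a few, with a lowest value of 3.43, a median of 4.01 and a highest value of 6.56 (SD 0.45). IAA9 had 3.60, 5.08 and 6.20 (SD 0.44), and IAA6 5.35, 6.58 and 7.61 (SD 0.43).

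Among the ARF genes, the highest SDs were those of ARF12, ARF16, ARF10, ARF1 and ARF17. ARF12 had a lowest value of 6.84, a median of 8.18 and a highest value of 9.28 over the RILs (SD 0.37). Most lines of ARF12 lay between the parental means of 8.80 and 7.06, and nearer the higher one (first quartile 7.96). Above the highest parental array there were 2 lines, and 0 lay below the lowest. ARF16 had 5.87, 7.13 and 7.99 (SD 0.36), ARF10 5.83, 6.68 and 7.62 (SD 0.32), ARF1 6.37, 7.50 and 8.30 (SD 0.31) and ARF17 7.68, 8.76 and 9.42 (SD 0.30).

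Lines beyond the parents were fewer than for most probe sets. The median number of RILs outside the range of the 6 parental arrays was 20 of 210 for the members, against 49 for all probe sets. Above the highest parental array the median was 10 lines for the members and 16 for all probe sets. Below the lowest it was 2 for the members and 16 for all probe sets. No line of IAA17 was outside, which allows a share of up to 1.74% (exact binomial interval, 95%), but without Zhenshan 97 replicate 3 the share was 12.4% (exact 95% interval 8.25 to 17.6). For IAA18 the count of 0 rested on Minghui 63 replicate 2, at 6.67, without which 63.8% of the lines were outside (exact 95% interval 56.9 to 70.3). The largest share was that of IAA7, whose level is near the bottom of the scale, with 57.6% of the lines (exact 95% interval 50.6 to 64.4). ARF22 and ARF15 had 75 and 67 lines outside, of which 70 and 66 were below the lowest parental array. The mean over the RILs was above both parental means in 10 members (23.3%, against 25.05% of all probe sets) and below both in 1 (2.33%, against 25.7%). In IAA1, for which the RIL mean was 11.24 and the parental means were 11.30 in Minghui 63 and 10.24 in Zhenshan 97, 62 lines were above the highest parental array and 0 below the lowest.

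**Figure D3:**
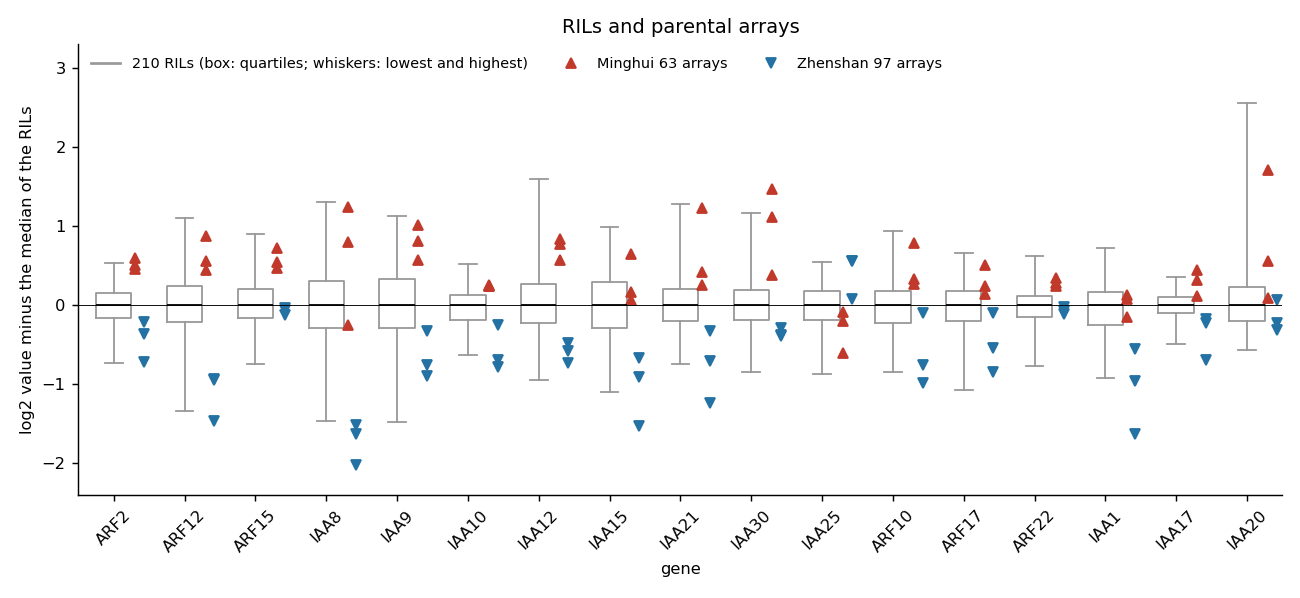
Distribution of log2 values over the 210 RILs (boxes show quartiles, whiskers the lowest and highest line), with the single arrays of Minghui 63 and of Zhenshan 97, each relative to the median of the RILs for that gene. In IAA8 the 3 Zhenshan 97 arrays (3.02 to 3.52) lie beyond the end of the lower whisker (3.57), in ARF15 and ARF22 they lie near the middle of the lines, and in IAA20 the highest line (6.56) stands far above the median (4.01).

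By the rule used here, the lines of IAA12 and IAA30 fell into 2 clusters (normal mixture of 2 components). For IAA12, 18 lines were centred at 5.87 and all others at 5.07, the upper centre being close to the mean of 5.84 in Minghui 63, while the mean of 4.51 in Zhenshan 97 was below both centres. For IAA30, 16 lines were centred at 6.23 and all others at 5.51, between the parental means of 6.54 in Minghui 63 and 5.19 in Zhenshan 97. The separation was slight: the Bayesian information criterion was 248.63 with 2 components and 252.04 with 1 for IAA12, and 149.94 with 2 and 150.40 with 1 for IAA30. After quantile normalization neither gene had 2 clusters, and with 5 principal components removed the number of such members was 1. The criterion favoured 2 components by more in IAA20 (197.05 with 2 and 271.59 with 1) and IAA18 (188.50 and 223.44). These 2 genes were not counted, because the rule also asks for centres far apart relative to their spread (Ashman's D over 2). Ashman's D was 1.48 for IAA20 and 1.80 for IAA18.

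Co-expression was measured over the 210 RILs by regression of every probe set on each member, and a pair of members was called where the limma adjusted p passed 0.05 in both directions. Of 903 pairs, 424 (47%) were called, against 30.7% of the pairs of a member with any other probe set. Positive relations made up 340 of them and negative ones 84. The share was 67.6% between ARF genes, 46.6% between an ARF and an Aux/IAA gene and 38.8% between Aux/IAA genes. Among probe sets at or above the median level these shares were 74.2%, 62.5% and 57.5%, against a background of 47.7%. With 5 principal components removed they were 40.4%, 15.4% and 16%. The difference between the families was not tested. Strong relations were few: r was at least 0.60 in 12 pairs (1.33%), against a background of 0.0844%, and at most -0.52 in 0 pairs, against 0.105% (1 pair after removal of blocks of 10 lines and 2 after quantile normalization). The 12 pairs became 7 after quantile normalization and 2 with 5 principal components removed, and 6 pairs had a rho of at least 0.60. With the first 5 principal components of the RIL arrays removed, 19.4% of the pairs were called, against a background of 7.11%. All pairs share the same arrays and so are not independent of each other.

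**Figure D4:**
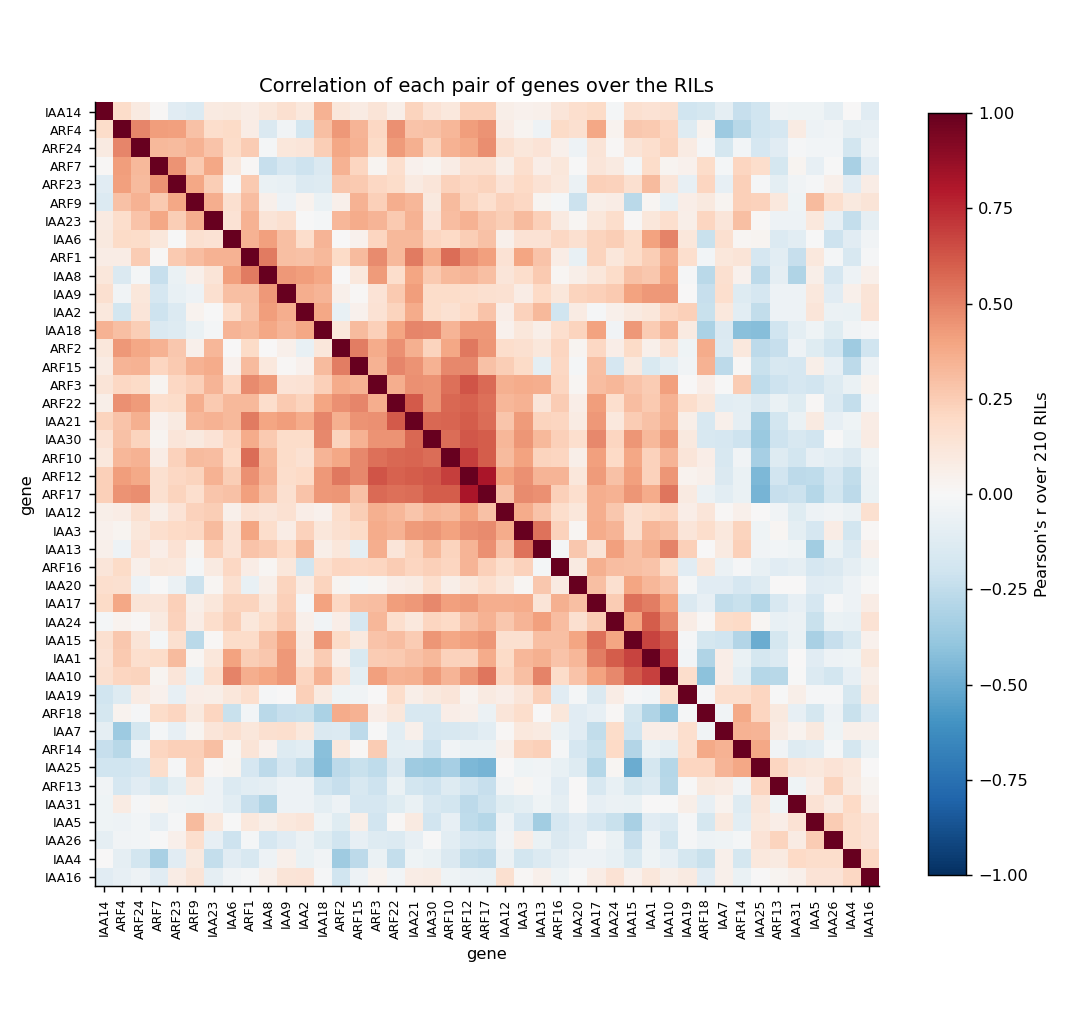
Pearson's r of each pair of the 43 members over the 210 RILs (colour), with genes ordered by average-linkage clustering. ARF3, ARF10, ARF12, ARF17, ARF22, IAA21 and IAA30 form a block of positive values around the pair ARF12 and ARF17 (0.819), IAA1, IAA10, IAA15, IAA17 and IAA24 form another, and IAA25 has mostly negative values; r of IAA12 and IAA30 pools their 2 clusters of lines.

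The pair with the highest r was ARF12 and ARF17, which share a microRNA. ARF17 ranged from 7.68 to 9.42 over the RILs and lines that were high in it were high in ARF12 (r = 0.819, rho = 0.785, permutation p = 1e-05 for each, the smallest the permutations can give). With the 2 most extreme lines of ARF12 left out, r was 0.809. The named pairs were picked for the highest and lowest r of the 903 pairs, and their permutation p was not adjusted for that choice. ARF12 also went with ARF10 (r = 0.688, rho = 0.658, r = 0.676 without the 2 farthest lines) and with ARF3 (r = 0.632, rho = 0.585, r = 0.594 without the 2 farthest lines), each with the same permutation p. The first 5 principal components of the RIL arrays carried 51.6% of the variance of ARF12 and 50.1% of that of ARF17. With these removed, r was 0.635 for ARF12 with ARF17, 0.540 for ARF10 with ARF12 and 0.440 for ARF3 with ARF12. Lines with high ARF12 and ARF17 had arrays with a low median over all probe sets (r = -0.481 and rho = -0.484 for ARF12, r = -0.479 and rho = -0.466 for ARF17, permutation p = 1e-05 for each, and 3e-05 for each r after adjustment over the 43 members). Without the 2 farthest arrays r was -0.463 for ARF12 and -0.455 for ARF17. Such a relation was not particular to these 2 genes. Over the 43 members, r with the array median lay between -0.481 (ARF12) and 0.580 (IAA4). It was -0.473 for ARF22, -0.345 for IAA15, 0.006 for ARF9 and 0.199 for IAA25. After quantile normalization, which makes the array medians equal, r of ARF12 with ARF17 was 0.777, and ARF12 was called with 38.3% of all probe sets.

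IAA30 and ARF12 were compared within the clusters of IAA30. Among the lines of the lower cluster r was 0.548 and rho 0.561 (permutation p = 1e-05 for each), and r was 0.523 without the 2 farthest lines. Among the 16 lines of the upper cluster r was 0.398 and rho 0.405 (permutation p = 0.127 and 0.121), and r was 0.626 without the 2 farthest lines.

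Among the Aux/IAA genes, IAA1 went with IAA10 (r = 0.687, rho = 0.639, permutation p = 1e-05 for each) and with IAA15 (r = 0.676, rho = 0.701, permutation p = 1e-05 for each). With the 2 most extreme lines of IAA1 left out, r was 0.674 with IAA10 and 0.678 with IAA15. With 5 principal components removed, r was 0.570 with IAA10 and 0.605 with IAA15. Over the RILs the lowest, median and highest values were 10.36, 11.29 and 12.01 for IAA1, 10.96, 11.59 and 12.11 for IAA10, and 10.10, 11.19 and 12.18 for IAA15. Cross-hybridization of related transcripts to these probe sets was not tested.

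IAA25 was the member with the most negative relations. It was called with 25 of 42 partners (59.5%), 18 of them negative and 7 positive, against 39.5% of all probe sets. Its values over the RILs had a lowest of 9.97, a median of 10.85 and a highest of 11.39, and lines with high IAA25 were low in IAA15 (r = -0.498, rho = -0.491), ARF17 (r = -0.467, rho = -0.518) and ARF12 (r = -0.451, rho = -0.496), for which the permutation p was 1e-05 in each case, the smallest possible here. Without the 2 farthest lines r was -0.487, -0.490 and -0.479. These same 4 genes lay apart in the parental arrays, IAA25 below 0 in the difference and the other three above it.

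The first 5 principal components carried 56.8% of the variance of IAA25, and with them removed r was -0.335 with ARF17 (limma adjusted p = 0.000101), -0.326 with ARF12 (adjusted p = 0.000162) and -0.112 with IAA15 (adjusted p = 0.433). IAA18 and IAA25 had r = -0.428 (rho = -0.398, permutation p = 1e-05 for each, r = -0.396 without the 2 farthest lines) and 0.165 with the components removed (limma adjusted p = 0.344). ARF14 and IAA18 had r = -0.416 (rho = -0.387, permutation p = 1e-05 for each, r = -0.421 without the 2 farthest lines) and -0.132 with the components removed (limma adjusted p = 0.510). ARF18, a microRNA-targeted repressor like ARF10, and IAA10 had r = -0.409 (rho = -0.400, permutation p = 1e-05 for each, r = -0.403 without the 2 farthest lines), and r was -0.355 with the components removed (limma adjusted p = 3.52e-05). What the components stand for was not tested.

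**Figure D5:**
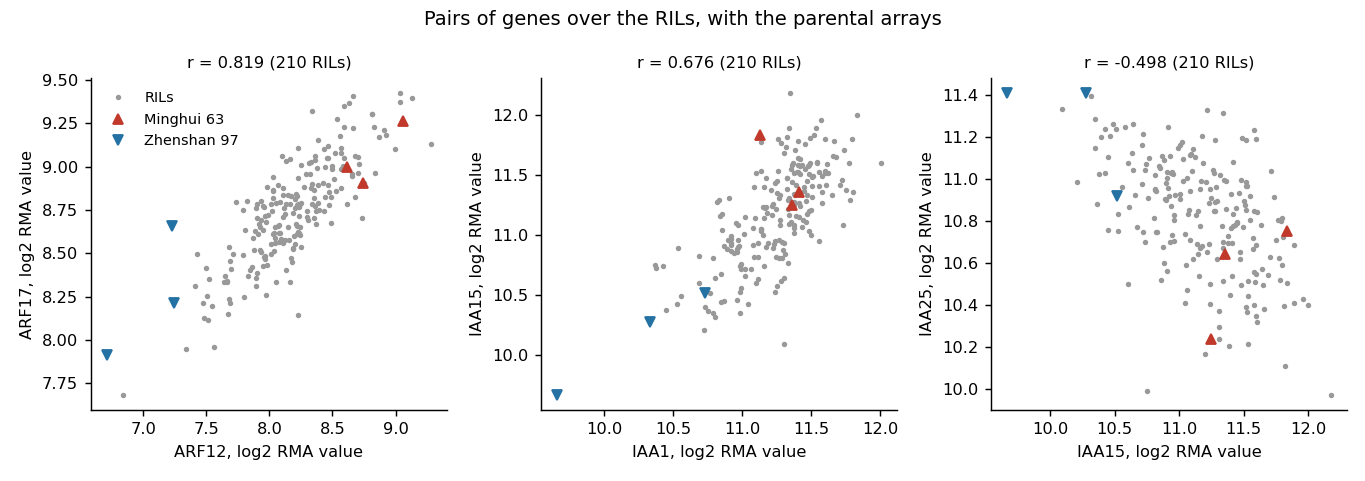
Log2 values of ARF17 against ARF12, IAA15 against IAA1 and IAA25 against IAA15, with a point for each of the 210 RILs and symbols for the arrays of Minghui 63 and of Zhenshan 97. The lines follow a rising band in the first 2 panels (r = 0.819 and 0.676) and a falling, wider one in the third (r = -0.498). The Zhenshan 97 arrays lie at low ARF12, IAA1 and IAA15 and mostly at high IAA25. The Minghui 63 arrays of IAA1 (11.13 to 11.41) lie between the quartiles of the lines (11.03 and 11.45).

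The number of partners differed widely between members. ARF12 was called with 34 of 42 others, ARF17 with 33 and ARF3 with 30, while IAA16 was called with 2, IAA19 with 3 and IAA14 with 5. The counts are read against the whole array, where a relation was called with 60.3% of all probe sets for ARF12, 58.6% for ARF17 and 42.9% for ARF3, against 8.17% for IAA16, 4.53% for IAA19 and 5.17% for IAA14. IAA14 and IAA16 had a low array level, with a median over the RILs of 2.33 for IAA14 and 2.86 for IAA16. Among the 45 pairs of the 10 members higher in Minghui 63, 33 (73.3%) were called, against 47% of all member pairs, and all of these were positive, with a median r of 0.34. The share of all probe sets called with each of these 10 members lay between 5.27% (IAA12) and 60.3% (ARF12). After quantile normalization 33 of the 45 pairs were called, 32 positive and 1 negative. With 5 principal components removed 11 of these pairs (24.4%) were called, against 19.4% of all member pairs, 10 positive and 1 negative.

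For the 3 members with the highest SD, the named genes with the most similar values over the 210 lines are given as a description. IAA8 was nearest to LOC4340750 (r = 0.666), CYCP3-1 (r = 0.655), a cyclin gene of the P type, and LOC4331407 (r = 0.638). IAA9 was nearest to LOC4330387 (r = 0.570), LOC4341214 (r = 0.554) and LOC4326913 (r = 0.554), and CYCP3-1 was again among its nearest genes (r = 0.542). IAA20 had no close neighbour, the nearest being IAA15 (r = 0.392), LOC4347252 (r = 0.392) and LOC4341940 (r = 0.386).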

How the data were processed

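The deposited values are log2 expression values per probe set of Affymetrix rice arrays, which the authors made with RMA and the affy package. No version of them is stated in the sources used here. They were used without further normalization for 210 RILs and 6 parental arrays, and 123 control probe sets were left out of the tests. The number of arrays limits the precision. The labels give sowings as the biological replicates of a parent and do not say that equal numbers share one.

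The probe annotation holds locus symbols, of which 0 match IAA or ARF with a number, so symbols were updated through the gene identifier to the names in the gene table of assembly ASM3414082v1. No coordinates are given, because the builds differ. A name listed for more than 1 gene was given to the gene with no other name. LAX1 and LAX2 are panicle genes in that table and were left out of the carriers.

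Parental arrays were fitted with limma 3.58.1 under R 4.3.3 (lmFit, eBayes with trend, 57258 probe sets, Benjamini-Hochberg, threshold 0.05). Pairs over the RILs were tested with limma on every probe set, and named pairs by 100000 two-sided permutations in Python 3.11.15 with numpy 2.4.6 and scipy 1.17.1. A gene had 2 clusters where a mixture of 2 normals had the lower Bayesian information criterion, at least 6 lines in each and Ashman's D over 2. The r limits of 0.60 and -0.52 are those the study's methods use.

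Members and gene lists were chosen with earlier results of these data known. Genes were named by a rule: members past the parental test, the 5 with the highest mean and the 5 with the highest SD over the RILs in each family, members with 2 clusters, the 6 highest and 6 lowest pairs, the 3 nearest genes of the 3 members with the highest SD, and pathway genes past the parental test. IAA7, IAA14, IAA16, IAA19, IAA24 and IAA31, the pathway genes that did not pass and CYCP3-1 beside IAA9 are also given, chosen after their values were seen.

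On simulated data with 3 arrays against 3 and 57258 probe sets, limma recovered 40% of changes of 1 and 88% of changes of 2 on the log2 scale, with 3.03% of calls false. For regression over 210 lines (5000 probe sets, fitted without variance trend), 94.6% of correlations of 0.3 were recovered and 4.83% of calls were false. The noise of the simulated probe sets was independent, whereas real probe sets vary together over the arrays. These rates therefore do not give the share of false calls in the real data. Alternatives were a fit without variance trend, only probe sets at or above the median level, quantile normalization, a replicate block, each parental array left out, all arrays in 1 fit, other probe sets of a gene (members only), Spearman correlation, and removal of 5 principal components, of the 3'-minus-5' differences or of blocks of 10 lines.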

Additional observations from a re-analysis of the deposited data

How the results depend on the processing

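The number of members past the parental test was 10. It lay between 4 and 14 when a single parental array was left out (4 without Zhenshan 97 replicate 1 or Minghui 63 replicate 1, 5 without Zhenshan 97 replicate 3), and was 17 with the RIL arrays in the same fit, 16 of them higher and 1 lower in Minghui 63. The number of other auxin pathway genes was 3, and 1 to 3 with an array left out. The replicate number as a block gave 8 members and 4 pathway genes. Same-numbered arrays of the parents did not deviate together (r = -0.202, -0.260 and -0.0706). With 3 arrays a parent, each set against its own mean, this cannot show whether equal numbers share a sowing. With 1 array left out, the difference of ARF4 lay between -0.029 (without Zhenshan 97 replicate 3) and 0.33, and that of IAA6 between -0.18 (without Minghui 63 replicate 2) and 0.44. Called pairs were 19.4% of 903 (background 7.11%) with 5 principal components removed, and r of IAA18 and IAA25 turned to 0.165. The number of members with 2 clusters was 2, 1 with the components removed and 0 after quantile normalization. The median number of lines outside the parental arrays was 20, and 20 to 28 with an array left out. The causes were not tested. Other alternatives left these counts within 1.5 times. IAA8, IAA9 and IAA12 lie below the filter on dim probe sets and were not tested under it. For probe sets near the bottom of the scale, such as IAA7, IAA14 and IAA16, signal over background limits what can be seen.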
